A study of Mus musculus with 16 samples.

Results

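RNA from the prefrontal cortex (PFC) of 4 APC/β-cat cKO mice was compared with that of 4 control littermates, which together make 8 of the 16 samples of the series. These 8 samples were taken by their genotype labels alone, with no measured value used. The other 8 samples, 4 APC cKOs and 4 β-cat cOEs, show whether a difference is found in the other mutant lines. They also enter the fit of all 16 samples, and with it the estimate of the spread and the expression filter behind every adjusted p value. The double mutants carry floxed alleles of both genes (APC fl/fl and ctnnb1 fl/fl) and the CamKIIα-Cre-93 transgene, so that exons 11 and 12 of Apc and exons 2 to 6 of Ctnnb1 are cut out. APC cKOs carry the floxed Apc alleles alone (APC fl/fl), and β-cat cOEs carry 1 Ctnnb1 allele whose exon 3 is floxed (ctnnb1 fl(ex3)/+), both with the same Cre line. Controls lack Cre and were pooled by the study from the litters of all lines, so they may carry floxed alleles, and which control came from which line is not given in the sources used here. Mice were 2 to 3 months old and of both sexes. The CamKIIα promoter drives Cre in forebrain excitatory neurons, so Apc and Ctnnb1 RNA of interneurons, glia and vessels stays intact in the tissue that was sequenced. The double mutant was made to ask which effects of APC loss need elevated β-catenin, since here APC is lost without β-catenin being able to build up.

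β-catenin has separate jobs at the membrane and in the nucleus. At adherens junctions and synapses it links cadherins to α-catenin and the actin cytoskeleton, and in the nucleus it binds TCF/LEF factors and switches on Wnt target genes. APC is the scaffold of the destruction complex, in which GSK3β and CK1α phosphorylate β-catenin so that it is ubiquitinated and degraded, and APC also binds microtubules. Loss of APC therefore normally raises β-catenin, which the deletion of Ctnnb1 in the same neurons prevents.

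The Ctnnb1 allele of the double mutant loses its start codon, and the first 60 coding bases of the transcript are shown for this reason, 5′ to 3′ from GENCODE transcript Ctnnb1-201 (mm10), with the start codon in capitals.
Ctnnb1 coding start: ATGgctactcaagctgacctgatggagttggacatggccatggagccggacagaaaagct
The start codon begins at position 120950221 of chromosome 9 (plus strand), 13 of these bases lie in exon 2 and the rest in exon 3. The floxed part runs from the start of exon 2 to the end of exon 6 (chr9:120950173-120951787), and it holds 984 of the 3623 transcript bases, 936 of them coding. Apc was at 43.2, 40.8, 41.6 and 50.1 FPKM in control replicates 1 to 4 and at 10.5, 12.2, 10.6 and 6.804 FPKM in APC/β-cat cKO replicates 1 to 4. FPKM is the number of fragments per kilobase of transcript, scaled to the mapped fragments of the sample. The 4 double mutants lay far below every control, and Apc fell by 2.14 on the log2(FPKM + 0.1) scale on which all changes below are given (SE 0.20, limma adjusted p = 3.35e-05, exact permutation p = 0.0286, two-sided, the smallest that 4 against 4 can give). Ctnnb1 was at 166, 161, 155 and 157 FPKM in controls and at 155, 156, 151 and 157 FPKM in APC/β-cat cKOs, and the groups overlapped. Its log2 change was -0.049 (SE 0.046, adjusted p = 0.643, exact permutation p = 0.0857, two-sided), with a 95% interval from -9.62% to 3.42%. The deposited table holds 1 value for each gene and none for each exon, and the Ctnnb1 value did not show the loss of exons that make up 27.2% of the transcript. It therefore checks nothing, while the Apc level of each of the 8 samples fits the Apc part of its label. APC cKOs, at 7.85 to 17.1 FPKM, overlapped the double mutants, so Apc does not tell these 2 lines apart. The paper reports strongly reduced β-catenin protein in the PFC of this double mutant line by immunoblot.

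Of the 8 samples, 3 stood apart in ways that touch the results. APC/β-cat cKO replicates 2 and 4 differed from the other samples in how their values depended on transcript length. Genes were ordered by transcript length and parted into 5 bins of equal size. In the bin of the longest transcripts the median deviation from the control mean was -0.17 in replicate 2 and -0.29 in replicate 4 on the log2 scale, and in the bin of the shortest it was 0.14 and 0.21. In replicates 1 and 3 the longest bin was at 0.031 and -0.040, and in the 4 controls it lay between -0.056 and 0.048. The genes higher in the double mutants at an unadjusted p under 0.05 had a median transcript of 2076 nucleotides, and those lower one of 5396. The same 2 replicates also depended on GC content, the share of G and C bases in the transcript. From the lowest to the highest GC bin the median went from -0.16 to 0.14 in replicate 2 and from -0.11 to 0.12 in replicate 4. In replicate 1 it went from -0.0061 to 0.019, in replicate 3 from -0.042 to 0.032 and in control replicate 4 from 0.080 to -0.088. No correction for GC content was made. Control replicate 1 was the only female sample among the 8 by Xist and 4 Y-linked genes. The counts and medians of gene lists are therefore also given, in this order, with replicates 1 and 3 as the only double mutants, after a correction for transcript length, and without control replicate 1. These are called the 3 alternatives below, where members higher or lower are counted at an unadjusted p under 0.05, and the first and the second were chosen after seeing the data. Leaving out a control that lies nearest to or beyond the double mutants enlarges a change by construction. For such genes the adjusted p values without control replicate 1 add no support. The table used here holds no fragment counts, so the depth is unknown, and the number of genes listed at 0 (5883 to 6451 in controls, 5959 to 6649 in double mutants) is the only guide to it.

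**Figure D1:**
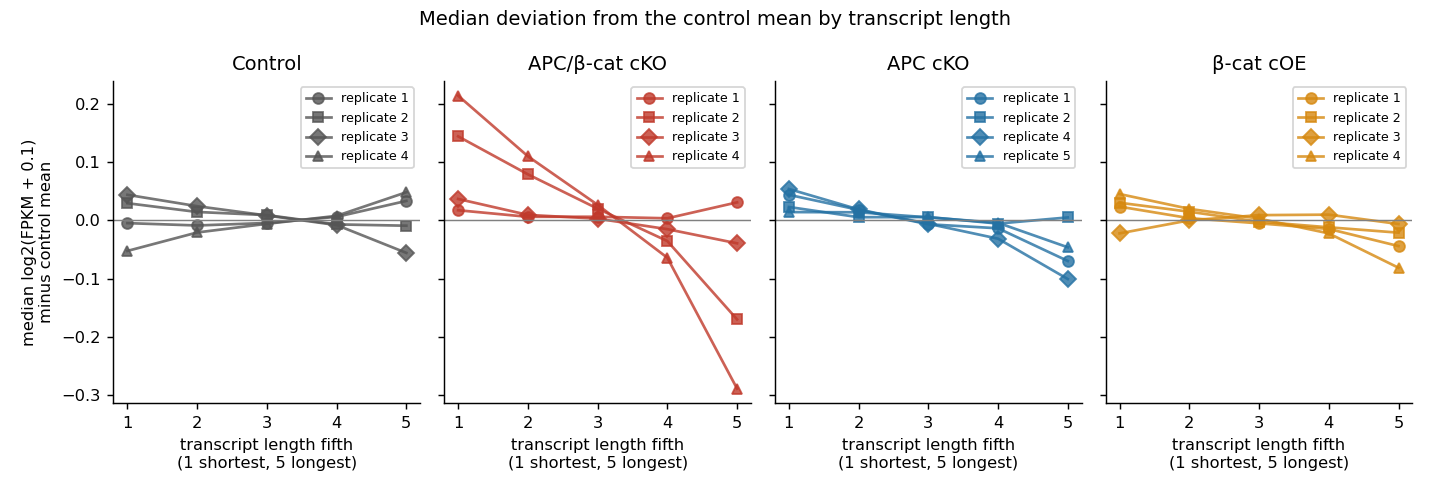
Median of log2(FPKM + 0.1) minus the control mean (y axis) in each of 5 bins of genes by transcript length (x axis, 1 shortest to 5 longest), 1 line for each sample in 4 panels by genotype. APC/β-cat cKO replicates 2 and 4 slope down to -0.17 and -0.29 in bin 5, and the next lowest sample, APC cKO replicate 4, is at -0.10.

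Of 13978 genes tested, 29 passed an adjusted p under 0.05, which is 0.207% of them. In the double mutants 18 rose (0.129%) and 11 fell (0.0787%), and 1984 genes had an unadjusted p under 0.05, 1002 of them higher and 982 lower. All 29 had double mutants and controls that did not overlap, against 5.21% of all genes tested, but these are the genes the same contrast picked out. Of the 11 that fell, 5 lay on chromosome 9, which carries Ctnnb1. These were 5 of the 805 genes tested on that chromosome, beside 29 of 13978 over all genes. With replicates 1 and 3 as the only double mutants, 8 genes passed, all of them among the 29, with Wwox, Fam131b, 2010315B03Rik, Apc, Sacm1l and Casp2 among them. Fewer samples alone lower such a count. The length correction called 30 genes of 13737 with a known length, 26 of them among the 29, and lost Mrpl41, Pon2 and S100a13. The count also depended on single samples. It was 56 without control replicate 1, with 25 of the 29 among them, and 12, 16 and 18 without control replicate 2, 3 or 4. Without APC/β-cat cKO replicate 1, 2, 3 or 4 it was 23, 10, 16 and 12. With sex as a covariate it was 49, with Smoc2 and Pon2 no longer among them, and in male samples alone 63, with Epm2aip1, Hes6, Smoc2, Trp53i11 and Pon2 no longer among them. Control replicate 1 was the only female of the 8 samples. Male samples leave it out and the covariate lowers its weight, so these counts are not separate from the 56 without it. The same 8 genes and the noncoding 2810002D19Rik passed in every fit that left out 1 of the 16 samples. Of these 16 fits, 8 left out an APC cKO or a β-cat cOE. In those 8 the log2 change against control stays the same and only the estimate of the spread can move. Counts out of 16 below include them.

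**Figure D2:**
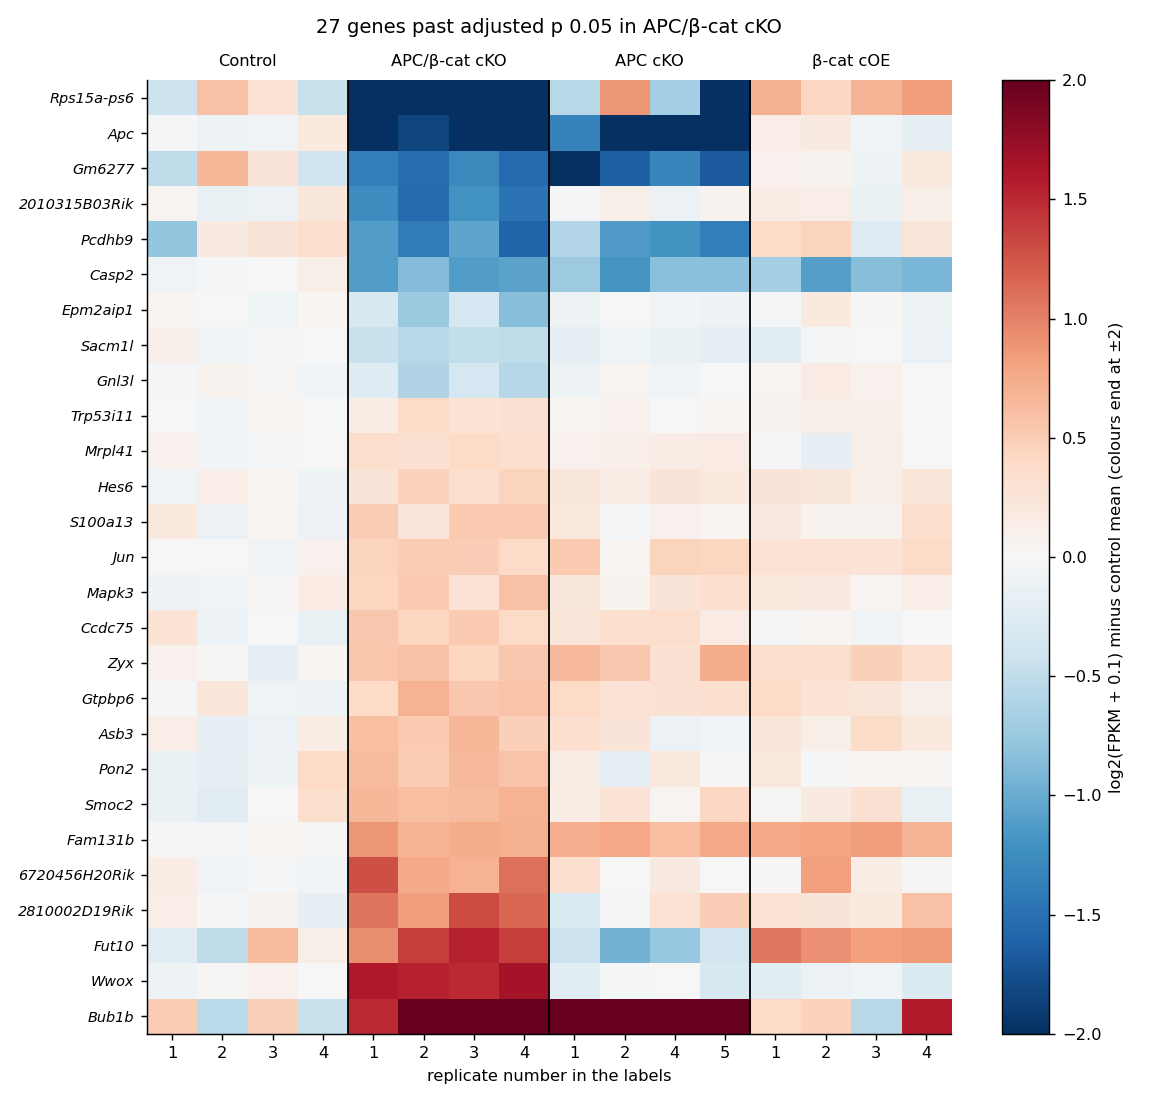
Colour shows log2(FPKM + 0.1) minus the control mean (scale ends at -2 and 2) for 27 of the 29 genes past an adjusted p of 0.05 (rows, ordered by their change) in all 16 samples (columns, by genotype and replicate number). Apc, Gm6277, Pcdhb9 and Bub1b look alike in APC cKOs and the double mutants, Fam131b and Casp2 look alike in all 3 mutant lines, and Wwox, Sacm1l and 2010315B03Rik stand out in the APC/β-cat cKO columns.

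Wwox had the smallest p-value of all genes tested. It encodes a WW domain oxidoreductase known as a tumour suppressor and lies at chr8:114439655-115352708 (mm10). Controls were at 10.3, 11.2, 11.7 and 10.95 FPKM and double mutants at 33.6, 32.1, 31.2 and 34.98 FPKM. The lowest double mutant was far above the highest control, a 2.99-fold difference in mean FPKM, and the log2 change was 1.57 (SE 0.077, adjusted p = 1.39e-08). APC cKOs were at 8.82 to 11.1 FPKM and β-cat cOEs at 9.099 to 10.4 FPKM, so both lay in or just under the control range. Tested directly, the double mutant was higher than APC cKO by 1.71 (SE 0.077, adjusted p = 3.73e-09) and higher than β-cat cOE by 1.75 (SE 0.077, adjusted p = 2.79e-09) on the log2 scale. These direct comparisons called 30 genes (0.215%) against APC cKO and 32 (0.229%) against β-cat cOE over all genes. The 5 genes tested within 2 Mb of Wwox had changes between -0.13 and 0.10, with the smallest adjusted p at 0.584. Wwox kept its change with replicates 1 and 3 alone (1.55, adjusted p = 4.97e-06). Fut10, an α-fucosyltransferase gene also on chromosome 8, rose from 0.998, 0.8005, 1.86 and 1.297 FPKM to 2.34, 3.26, 3.61 and 3.24 FPKM (1.31, SE 0.21, adjusted p = 0.0155). It differed from APC cKO, where it was at 0.563 to 0.898 FPKM, by 1.93 (SE 0.21, adjusted p = 3.41e-04). In β-cat cOEs Fut10 was at 2.16 to 2.57 FPKM, above every control and overlapping the double mutants. The double mutant's difference from β-cat cOE did not pass (0.40, SE 0.21, adjusted p = 0.468). The Fut10 call was lost without APC/β-cat cKO replicate 2, 3 or 4 or control replicate 2.

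On chromosome 9, 5 genes within 15 Mb of Ctnnb1 passed, and all 5 fell. The results of 3 of them are given here, Epm2aip1, which encodes a laforin-binding protein, the phosphoinositide phosphatase gene Sacm1l and 2010315B03Rik. Epm2aip1 was at 36.1, 35.4, 33.3 and 36.2 FPKM in controls and 28.2, 21.1, 27.6 and 19.4 FPKM in double mutants (-0.57, SE 0.10, adjusted p = 0.0308). Replicates 2 and 4, which show the length dependence, were the lowest, its transcript is long, and with replicates 1 and 3 alone the change was -0.34 (adjusted p = 0.257) while the length-corrected change was -0.45 (adjusted p = 0.00473). Its call was also lost without APC/β-cat cKO replicate 2 or 4 or control replicate 2, 3 or 4. Sacm1l, whose product removes phosphate from phosphatidylinositol 4-phosphate, was at 42.99, 37.7, 39.4 and 40.1 FPKM in controls and 29.3, 27.2, 28.3 and 28.02 FPKM in double mutants (-0.503, SE 0.055, adjusted p = 2.92e-04). The 4 double mutants lay within a narrow range below every other sample of the series. The RIKEN cDNA gene 2010315B03Rik was at 6.97, 6.03, 6.15 and 7.87 FPKM in controls and 2.74, 2.26, 2.85 and 2.35 FPKM in double mutants (-1.37, SE 0.10, adjusted p = 3.34e-06). APC cKOs (6.15 to 7.32 FPKM) and β-cat cOEs (6.13 to 7.46 FPKM) lay above every double mutant. In the direct tests Sacm1l was lower in the double mutant than in APC cKO (-0.36, adjusted p = 0.0134) and β-cat cOE (-0.42, adjusted p = 0.00259), and so was 2010315B03Rik (-1.38, adjusted p = 4.40e-06, and -1.44, adjusted p = 2.51e-06). Epm2aip1 differed from β-cat cOE (-0.59, adjusted p = 0.0229) and missed the threshold against APC cKO (-0.51, adjusted p = 0.059).

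Relative to the start of Ctnnb1, Epm2aip1 began at -9.66 Mb, Sacm1l at 2.601 Mb and 2010315B03Rik at 3.36 Mb. The genes that passed were 5 of 206 genes tested in this window, 2.43% against 0.207% of all genes. The 200 genes of the window other than Ctnnb1 that did not pass had a median change of 0.032, with 85 of them below 0. The window around Apc on chromosome 18 held 197 tested genes, of which Apc itself and Pcdhb9 passed, and the 195 others had a median of -0.033. The window was chosen with these results known. Both floxed alleles are carried by every double mutant, and the floxed Ctnnb1 allele by no APC cKO, so loss of the gene product and the chromosome segment carried with the floxed allele cannot be told apart here.

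**Figure D3:**
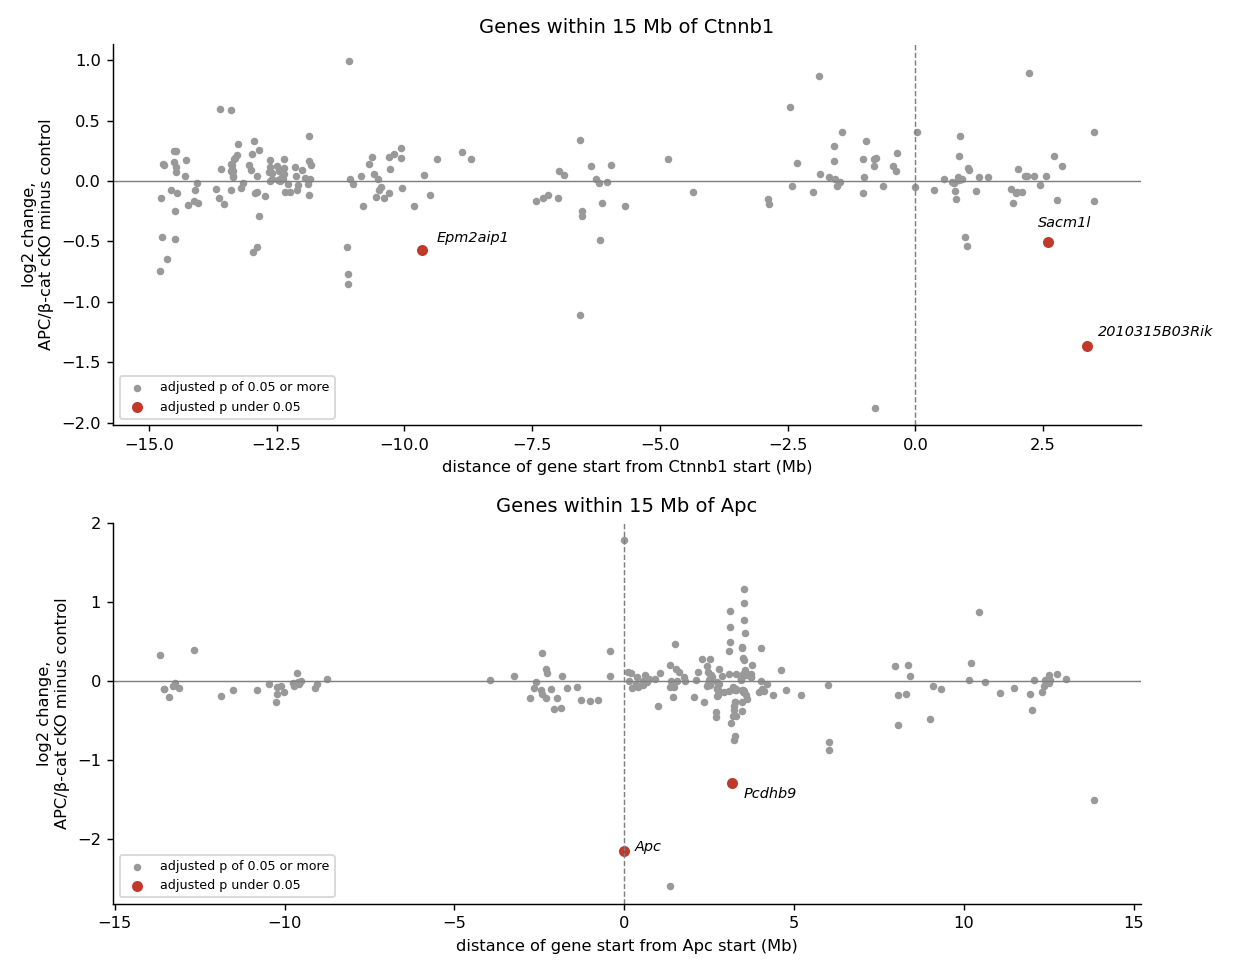
Log2 change in APC/β-cat cKO minus control (y axis) against the distance in Mb of each gene's start from that of Ctnnb1 (top) or Apc (bottom), for the genes reported here within 15 Mb. Red points passed an adjusted p of 0.05. The red points around Ctnnb1 are Epm2aip1, Sacm1l and 2010315B03Rik, which lie below 0 among grey points scattered around 0, and around Apc the red points are Apc and Pcdhb9.

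Gm6277, Pcdhb9 and Bub1b were near the double mutant level in APC cKOs as well. Gm6277, an antisense gene on chromosome 18 (-22.4 Mb from Apc), was at 1.61, 3.76, 2.82 and 1.75 FPKM in controls, 0.839, 0.754, 0.9002 and 0.734 FPKM in double mutants and 0.373 to 0.8798 FPKM in APC cKOs (-1.43, SE 0.25, adjusted p = 0.0241 against control). Whether the authors' counting used strand is not given in the sources used here, so reads of its sense partner could enter this value. Pcdhb9, one of the clustered protocadherins that neurons use for self-recognition, was at 3.98, 7.796, 8.21 and 8.75 FPKM in controls and 3.13, 2.53, 3.27 and 2.21 FPKM in double mutants (-1.29, SE 0.24, adjusted p = 0.0361). Control replicate 1, whose Apc was at control level, was closest to the double mutants and lay within the APC cKO range. Without it the change was -1.55 (adjusted p = 0.00118), which is larger by construction and adds no support. APC cKOs were at 2.57 to 4.57 FPKM and β-cat cOEs at 5.71 to 9.42 FPKM, and the double mutant differed from β-cat cOE (-1.497, adjusted p = 0.0143). The cluster's genes are near copies of each other, so reads may be split between them and the value is uncertain. The calls of Gm6277, Pcdhb9 and Bub1b held in 10, 4 and 4 of the 16 fits that left out 1 sample. Bub1b, a spindle checkpoint kinase gene, was near the floor in controls (0.167, 0.0283, 0.1598 and 0.0364 FPKM) and at 0.427, 1.69, 1.11 and 0.736 FPKM in double mutants (2.41, SE 0.46, adjusted p = 0.0485). APC cKOs were at 0.653 to 1.66 FPKM, and at such levels the change depends on the pseudocount of 0.1 FPKM. Its call was lost with a pseudocount of 0.5 FPKM (1.26, adjusted p = 0.0663) and of 1 FPKM (0.82, adjusted p = 0.094).

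The protocadherin clusters lie close to Apc on chromosome 18. Of the beta protocadherins as a list (22 genes, 21 tested), 1 fell at the adjusted threshold, 6 were lower and 2 higher at an unadjusted p under 0.05 (7.03% and 7.17% of all genes), and the median was -0.12 (-0.11, -0.12 and -0.041 in the 3 alternatives, with 2, 2 and 4 higher and 5, 6 and 5 lower). Pcdhb3, Pcdhb6 and Pcdhb7, named after their values were seen, were above every double mutant in control replicate 1, and without it they were higher in the double mutants by 0.67, 1.45 and 1.05 (adjusted p = 0.0211, 0.0171 and 0.00765). With all controls these changes were 0.38, 0.88 and 0.69 (adjusted p = 0.412, 0.352 and 0.289). Pcdhb12 was at 2.69, 4.07, 5.01 and 4.43 FPKM in controls and 2.69, 1.897, 2.17 and 2.58 FPKM in double mutants (-0.75, unadjusted p = 3.14e-04, adjusted p = 0.0953). Control replicate 1 was again level with the double mutants, and without it the change was -0.93 (adjusted p = 0.00385). Pcdhb8 was at 1.52 to 2.12 FPKM in controls and 1.07 to 1.31 FPKM in double mutants (log2 change -0.53) and Pcdhb19 at 1.73 to 2.42 FPKM in controls and 1.24 to 1.88 FPKM in double mutants (log2 change -0.44), with unadjusted p from 0.00834 to 0.0105 and adjusted p from 0.273 to 0.278. Of the gamma protocadherins (22 genes, 22 tested), 0 passed, 5 were higher and 3 lower at an unadjusted p under 0.05, and the median was 0.078 (0.14, 0.12 and 0.064 in the 3 alternatives, with 2, 7 and 6 higher and 0, 3 and 3 lower). Pcdhgc5 was at 60.6 to 63.3 FPKM in controls and 45.9 to 58.1 FPKM in double mutants (log2 change -0.23) and Pcdhga5 at 3.99 to 5.17 FPKM in controls and 3.34 to 4.15 FPKM in double mutants (log2 change -0.26). In the other direction Pcdhga11 was at 1.39 to 6.89 FPKM in controls and 6.49 to 7.6995 FPKM in double mutants (log2 change 1.17). Pcdhgb5 was at 0.837 to 2.95 FPKM in controls and 2.78 to 3.62 FPKM in double mutants (log2 change 0.995). For both Pcdhga11 and Pcdhgb5 control replicate 1 was inside the double mutant range. These 4 genes had unadjusted p from 0.00386 to 0.0192 and adjusted p from 0.225 to 0.288.

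Another 3 called genes lay together on chromosome 6, and 2 of them, Fam131b and Casp2, passed against control in all 3 Cre lines. Fam131b was at 63.2, 64.1, 67.2 and 66.7 FPKM in controls and 119.9, 104, 109 and 107 FPKM in double mutants (0.75, SE 0.053, adjusted p = 1.96e-06), and its ranges of 98.7 to 112 FPKM in APC cKOs and 105 to 117 FPKM in β-cat cOEs also lay above every control. Casp2, the gene of an initiator caspase, was at 3.36, 3.42, 3.52 and 3.84 FPKM in controls and 1.57, 1.89, 1.58 and 1.64 FPKM in double mutants (-1.04, SE 0.12, adjusted p = 5.20e-04), and its ranges in the other lines (1.499 to 2.09 and 1.59 to 2.202 FPKM) lay below every control. Zyx, which encodes the focal adhesion protein zyxin, was at 15.5, 14.8, 13.03 and 14.98 FPKM in controls and 21.4, 21.8, 19.7 and 21.1 FPKM in double mutants (0.53, SE 0.081, adjusted p = 0.0105), a call lost without APC/β-cat cKO replicate 2. Casp2, Fam131b and Zyx begin within 0.0846 Mb of each other. Against control, Fam131b and Casp2 passed in both other lines (Fam131b 0.71 and 0.77, Casp2 -0.90 and -0.88 in APC cKO and β-cat cOE), and Zyx in APC cKO (0.55, adjusted p = 0.0124) but not in β-cat cOE (0.38, adjusted p = 0.726). These comparisons share the control samples. For Zyx the β-cat cOEs, at 18.5 to 20.3 FPKM, still lay above every control. No difference of these 3 genes between the double mutant and either line passed, with log2 differences from -0.16 to 0.15 and adjusted p values from 0.477 to 0.935. Cre is present in all 3 lines and absent from controls, so effects of Cre or of its insertion and effects common to the mutations cannot be told apart.

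**Figure D4:**
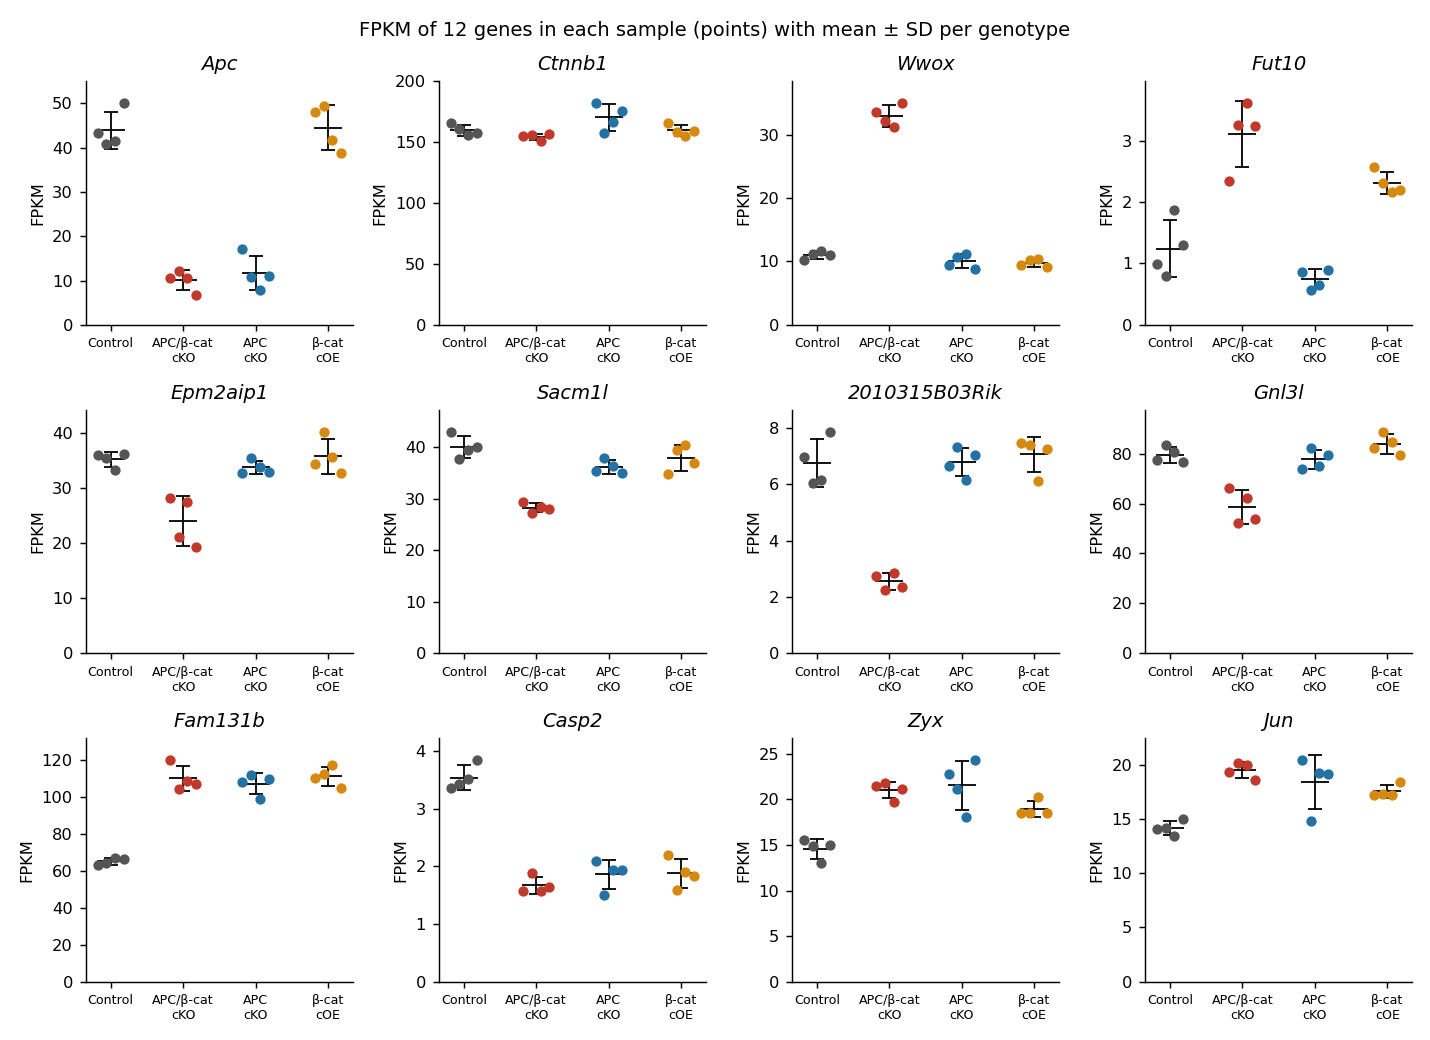
FPKM (y axis, from 0) of 12 genes in the 4 genotypes (x axis), 1 point for each sample, with the mean (long tick) and SD (bars), n = 4. Wwox is high and Epm2aip1, Sacm1l, 2010315B03Rik and Gnl3l are low in APC/β-cat cKO. Fam131b, Casp2 and Zyx are shifted in all 3 mutant lines, and Ctnnb1 overlaps between double mutants and controls.

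Of the other called genes, most rose, and most had calls that depended on single samples. Among signalling genes, Mapk3, which encodes the kinase ERK1, was at 70.3, 71.5, 76.8 and 84.8 FPKM in controls and 102, 109, 92.9 and 113 FPKM in double mutants (0.46, SE 0.074, adjusted p = 0.0155). The AP-1 subunit gene Jun was at 14.1, 14.2, 13.5 and 15.03 FPKM in controls and 19.4, 20.2, 19.95 and 18.6 FPKM in double mutants (0.46, SE 0.080, adjusted p = 0.0245). Hes6, a bHLH factor of neuronal differentiation, was at 7.66 to 9.03 FPKM in controls and 9.89 to 11.4 FPKM in double mutants (0.38, adjusted p = 0.0322). Smoc2, which encodes a secreted calcium-binding matrix protein, was at 7.21 to 10.8 FPKM in controls and 12.8 to 13.7 FPKM in double mutants (0.65, SE 0.12, adjusted p = 0.0361). Mapk3, Jun, Hes6 and Smoc2 all had double mutants above every control, yet their calls held in 13, 10, 8 and 6 of the 16 fits that left out 1 sample. Every fit that lost the call of Jun left out a double mutant or a control. That of Mapk3 was lost without APC/β-cat cKO replicate 2 or 4 or control replicate 2. On the X chromosome Gnl3l, which encodes a nucleolar GTP-binding protein, fell from 77.5, 83.3, 80.6 and 76.5 FPKM to 66.4, 52.4, 62.2 and 53.7 FPKM (-0.44, SE 0.069, adjusted p = 0.0105). It was also lower than in APC cKO (-0.41, adjusted p = 0.0187) and β-cat cOE (-0.52, adjusted p = 0.00259), and with replicates 1 and 3 alone the change was -0.31 (adjusted p = 0.185). Its call was lost without the same 3 samples as that of Mapk3. Mrpl41, a mitochondrial ribosomal protein gene, was at 13.4 to 14.8 FPKM in controls and 17.1 to 18.3 FPKM in double mutants (0.35, adjusted p = 0.0241), and the GTP-binding protein gene Gtpbp6 at 14.4 to 18.4 and 20.6 to 25.4 FPKM (0.55, adjusted p = 0.0105). Mrpl41 has a short transcript, and its change after the length correction was 0.22 (adjusted p = 0.371). The call of Gtpbp6 was lost without APC/β-cat cKO replicate 2. The noncoding 2810002D19Rik was at 1.45, 1.27, 1.38 and 1.17 FPKM in controls and 2.87, 2.42, 3.38 and 3.03 FPKM in double mutants (1.09, SE 0.16, adjusted p = 0.00928), and its mean was 2.22-fold higher.

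Among other protein-coding genes that rose, 6720456H20Rik, now named Tmem260, was at 1.92 to 2.26 against 3.33 to 5.11 FPKM (0.96, adjusted p = 0.0322) and Ccdc75, now Gpatch11, at 8.41 to 11.2 against 12.1 to 13.7 FPKM (0.47, adjusted p = 0.0245). The SOCS box gene Asb3 was at 4.03 to 5.01 against 6.32 to 7.22 FPKM (0.57, adjusted p = 0.0419) and the p53-induced gene Trp53i11 at 28.8 to 31.2 against 33.3 to 39.3 FPKM (0.28, adjusted p = 0.0369). The paraoxonase gene Pon2 was at 21.1, 20.7, 21.8 and 30.9 FPKM in controls, of which replicate 4 was near the double mutants at 36.2, 33.1, 36.5 and 34.5 FPKM (0.59, adjusted p = 0.0459), and S100a13, of the S100 calcium-binding family, was at 23.9 to 29.7 against 30.9 to 37.7 FPKM (0.45, adjusted p = 0.0485). After the length correction neither passed, at a change of 0.56 (adjusted p = 0.0624) for Pon2, close to the uncorrected one, and of 0.31 (adjusted p = 0.25) for S100a13. The calls of Mrpl41, Ccdc75, 6720456H20Rik, Asb3, Trp53i11, Pon2, S100a13 and Rps15a-ps6 held in 3 to 10 of the 16 fits that left out 1 sample. The pseudogene Rps15a-ps6 was at 5.71, 11.4, 9.25 and 5.57 FPKM in controls and 0.289, 0.233, 0.145 and 0.485 FPKM in double mutants, but APC cKOs spread from 0.191 to 14.1 FPKM and it shares its sequence with its parent gene, so its value is uncertain (-4.39, SE 0.78, adjusted p = 0.0308).

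Of the Wnt pathway genes on the lists below, Apc was the only one that passed the adjusted threshold with all samples. The target gene Ccnd1 passed with sex as a covariate (0.76, adjusted p = 0.0383) and in male samples alone (0.78, adjusted p = 0.0409). Control replicate 1, the only female among controls and double mutants, was the only control within the double mutant range for Ccnd1. Male samples leave it out and the covariate lowers its weight, so these values add no support. The lists below were assembled with earlier results of these data known, and over all genes tested 7.17% were higher and 7.03% lower at an unadjusted p under 0.05 with a median log2 change of 0.0031. In the destruction complex (11 genes, 11 tested) Apc alone passed, 5 members including Apc were lower and 0 higher at an unadjusted p under 0.05, and the median was -0.15. It was -0.082, -0.13 and -0.15 in the 3 alternatives, with 0, 1 and 0 higher and 1, 5 and 5 lower. Gsk3b, the kinase that marks β-catenin for degradation, was at 33.2, 30.8, 27.7 and 34.1 FPKM in controls and 30.3, 21.1, 28.8 and 21.3 FPKM in double mutants (-0.33, unadjusted p = 0.00972, adjusted p = 0.278). Only replicates 2 and 4 lay below all controls. Btrc, which encodes the ubiquitin ligase subunit β-TrCP, was at 24.4 to 27.8 FPKM in controls and 21.02 to 24.8 FPKM in double mutants (log2 change -0.20), and Csnk1a1, the gene of the priming kinase CK1α, at 109.5 to 129.8 FPKM in controls and 98.8 to 114 FPKM in double mutants (log2 change -0.15), with unadjusted p from 0.0143 to 0.0223 and adjusted p from 0.281 to 0.294. Among catenins, cadherins and the scaffold Magi2 (17 genes, 16 tested), 0 passed, 1 was higher and 3 lower at an unadjusted p under 0.05, and the median was -0.043 (0.0080, 0.014 and -0.044 in the 3 alternatives, with 1, 1 and 1 higher and 1, 3 and 3 lower). Ctnna2, the neuronal α-catenin that β-catenin binds, was at 56.4, 57.8, 55.8 and 55.5 FPKM in controls and 53.9, 46.8, 46.8 and 49.9 FPKM in double mutants (-0.19, unadjusted p = 0.00327, adjusted p = 0.214), with every double mutant below every control. The cadherin gene Cdh8 was at 15.02 to 17.2 FPKM in controls and 9.89 to 14.8 FPKM in double mutants (log2 change -0.33) and Magi2 at 23.2 to 25.7 FPKM in controls and 15.7 to 24.5 FPKM in double mutants (log2 change -0.32). Cdh13, a cadherin gene without a cytoplasmic tail, was at 18.8 to 22.2 FPKM in controls and 22.99 to 27.05 FPKM in double mutants (log2 change 0.26). These 3 had unadjusted p from 0.0106 to 0.0237 and adjusted p from 0.278 to 0.298.

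Downstream of β-catenin, TCF/LEF factors and their cofactors (15 genes, 15 tested) had 0 calls, 1 member higher and 2 lower at an unadjusted p under 0.05 and a median of -0.037 (-0.038, -0.0008 and -0.076 in the 3 alternatives, with 0, 1 and 0 higher and 0 lower). The Groucho-family gene Aes was at 262 to 296 FPKM in controls and 276 to 345 FPKM in double mutants (log2 change 0.16). The β-catenin cofactor gene Bcl9 was at 5.92 to 6.99 FPKM in controls and 4.57 to 6.43 FPKM in double mutants (log2 change -0.22) and the corepressor gene Tle4 at 12.7 to 19.03 FPKM in controls and 12.1 to 13.5 FPKM in double mutants (log2 change -0.24). These 3 had unadjusted p from 0.0225 to 0.0463 and adjusted p from 0.294 to 0.345, and all overlapped between the groups. The canonical Wnt target genes (25 genes, 18 tested) were centred on the controls, with a median of 0.0041, 0 calls, and 2 higher and 0 lower at an unadjusted p under 0.05. The median was -0.033, 0.025 and -0.011 in the 3 alternatives, with 2, 2 and 2 higher and 0 lower. The G1 cyclin gene Ccnd1 was at 14.2, 9.33, 9.502 and 10.8 FPKM in controls and 17.5, 12.2, 17.7 and 21.9 FPKM in double mutants (0.64, unadjusted p = 0.0015, adjusted p = 0.168), where replicate 2 overlapped the controls. Id2, a bHLH inhibitor, was at 89.1, 113, 93.03 and 98.4 FPKM in controls and 116, 108, 123 and 143 FPKM in double mutants (0.31, unadjusted p = 0.00282, adjusted p = 0.207). For Ccnd1 the change with replicates 1 and 3 alone was 0.70 and after the length correction 0.65. Axin2, the feedback target most used as a readout of the pathway, was at 6.26, 4.75, 5.81 and 6.01 FPKM in controls and 5.02, 5.25, 5.703 and 4.52 FPKM in double mutants (-0.15, unadjusted p = 0.206, adjusted p = 0.555), and the groups overlapped. Of Wnt ligands, receptors and Dishevelled genes (34 genes, 27 tested), 0 passed, 1 was higher and 1 lower at an unadjusted p under 0.05, and the median was 0.10 (0.032, 0.078 and 0.11 in the 3 alternatives, with 1, 2 and 1 higher and 0, 1 and 0 lower). The receptor gene Fzd6 was at 0.918 to 1.94 FPKM in controls and 1.61 to 2.03 FPKM in double mutants (log2 change 0.55) and the ligand gene Wnt2b at 0.636 to 0.987 FPKM in controls and 0.3697 to 0.621 FPKM in double mutants (log2 change -0.52), with unadjusted p from 0.0201 to 0.0309 and adjusted p from 0.289 to 0.316. The 6 tested genes of secreted antagonists (11 listed) had changes below 0, with a median of -0.22 and 0 members at an unadjusted p under 0.05 (-0.28, -0.21 and -0.20 in the 3 alternatives, with 0 higher and 0, 1 and 1 lower). The most abundant were Dkk3 at 170.5 to 179.7 against 143 to 177 FPKM (-0.22) and Frzb at 14.2 to 17.5 against 13.1 to 16.5 FPKM (-0.13).

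For the lists the study drew from these same samples, which are therefore no independent evidence, the genes it links to autism (10 genes, 9 tested) had a median of 0.14 and the Wnt targets it marks (9 genes, 9 tested) one of 0.060, with 0 members of either at an unadjusted p under 0.05. These medians were 0.073, 0.15 and 0.098 in the 3 alternatives for the first and -0.049, 0.11 and -0.013 for the second, again with 0 members at an unadjusted p under 0.05. In both lists Camk4 was at 18.2 to 27.6 against 15.6 to 24.5 FPKM (-0.24), and in the second list Calb2 was at 10.8 to 88.9 against 20.5 to 128 FPKM (0.37). The TCF/LEF core letters CTTTGAT, searched on both strands, occur in 3.73% of 32851 RefSeq promoters (GRCm38.p6, 250 bases before to 50 after a start), and among the 17 of 29 called genes with an entry only in that of Bub1b. CCAAT occurs in 37.4% of promoters and in 11 of the 19 promoters that the 17 genes have, that of Sacm1l among them. A match of letters is a description and not a binding site.

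No synaptic gene listed passed the adjusted threshold, and the medians of both synaptic lists were further below 0 in double mutant replicates 2 and 4 than in 1 and 3. Of glutamate receptor and postsynaptic scaffold genes (24 genes, 24 tested), 0 passed, 5 were lower and 0 higher at an unadjusted p under 0.05, and the median was -0.16. It was -0.0061, -0.047 and -0.13 in the 3 alternatives, with 0 higher and 0, 2 and 2 lower. By replicate the median was 0.062, -0.22, -0.053 and -0.35 in double mutants 1 to 4. The AMPA receptor gene Gria4 was at 39.6, 42.99, 44.9 and 44.9 FPKM in controls and 41.8, 30.5, 36.5 and 30.5 FPKM in double mutants (-0.32, unadjusted p = 0.00197, adjusted p = 0.188), and Gria2 at 152, 144, 146 and 142 and 149.7, 107, 141 and 102 FPKM (-0.24, unadjusted p = 0.0253, adjusted p = 0.302). In both genes replicates 2 and 4 were the low ones. Dlg2, which encodes the scaffold PSD-93, was at 70.8 to 79.9 FPKM in controls and 57.9 to 72.4 FPKM in double mutants (log2 change -0.20) and the scaffold gene Shank1 at 35.7 to 39.3 FPKM in controls and 24.5 to 35.2 FPKM in double mutants (log2 change -0.28), with unadjusted p from 0.0122 to 0.0286 and adjusted p from 0.278 to 0.31. Of the GABA synapse genes (19 genes, 19 tested), 0 passed, 4 were lower and 1 higher at an unadjusted p under 0.05, and the median was -0.12 (-0.040, -0.099 and -0.14 in the 3 alternatives, with 0, 1 and 1 higher and 1, 2 and 3 lower). Gabra2, the α2 subunit gene of the GABA-A receptor, differed from this pattern. It was at 61.98, 58.2, 68.5 and 73.5 FPKM in controls and 48.4, 52.3, 45.8 and 56.9 FPKM in double mutants (-0.36, unadjusted p = 2.66e-04, adjusted p = 0.0863), every double mutant was below every control, and replicates 1 and 3 were the lowest (-0.47 with these alone). Gabrd, of the extrasynaptic δ subunit, was at 36.6 to 44.2 FPKM in controls and 43.2 to 57.4 FPKM in double mutants (log2 change 0.23). The subunit gene Gabrb1 was at 12.3 to 13.6 FPKM in controls and 5.68 to 13.9 FPKM in double mutants (log2 change -0.48). Both had unadjusted p from 0.0173 to 0.0388 and adjusted p from 0.283 to 0.334.

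Immediate early genes, which neuronal activity induces (20 genes, 20 tested), had the highest median among the neuronal lists at 0.40. Jun passed, 5 members including Jun were higher and 0 lower at an unadjusted p under 0.05, and 17 of 20 had changes above 0. By replicate the list's median deviation was 0.34, 0.64, 0.47 and -0.027, and replicate 4 alone was at control level. The median was 0.41, 0.41 and 0.37 in the 3 alternatives, with 2, 2 and 3 higher and 0 lower. The phosphatase gene Dusp1 was at 10.6, 12.7, 10.7 and 14.7 FPKM in controls and 21.1, 19.9, 19.3 and 13.7 FPKM in double mutants (0.59, unadjusted p = 0.0407, adjusted p = 0.335), and the same replicate lay among the controls. Ier2 was at 3.33 to 5.17 FPKM in controls and 5.49 to 6.56 FPKM in double mutants (log2 change 0.48) and Fosb, of the AP-1 family, at 1.94 to 3.17 FPKM in controls and 2.61 to 4.57 FPKM in double mutants (log2 change 0.43), with unadjusted p from 0.0297 to 0.0452 and adjusted p from 0.312 to 0.343. APC cKOs had a median of 0.53 and β-cat cOEs one of 0.067 for this list, against the same controls. Microtubule genes (22 genes, 22 tested) had 0 calls, 5 higher and 1 lower at an unadjusted p under 0.05, and a median of 0.048 (0.038, 0.026 and 0.039 in the 3 alternatives, with 0, 1 and 4 higher and 1, 1 and 1 lower). The α-tubulin gene Tuba1a was at 502, 504, 504 and 528 FPKM in controls and 585, 645, 545 and 609 FPKM in double mutants (0.22, unadjusted p = 0.00344, adjusted p = 0.219), with no overlap. Stmn1, the gene of the microtubule destabiliser stathmin, was at 647 to 687 FPKM in controls and 759 to 938 FPKM in double mutants (log2 change 0.32) and the β-tubulin gene Tubb4a at 297 to 329 FPKM in controls and 333 to 359 FPKM in double mutants (log2 change 0.15), with unadjusted p from 0.00851 to 0.0162 and adjusted p from 0.274 to 0.281. Tuba1c went the other way, at 0.4197, 2.801, 2.83 and 3.302 FPKM in controls and 0.2999, 0.468, 0.317 and 0.403 FPKM in double mutants (-2.08, unadjusted p = 2.23e-04, adjusted p = 0.0831), and only control replicate 1 lay in the double mutant range. Without it the change was -2.72 (adjusted p = 6.40e-06), which is larger by construction and adds no support.

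Markers of cell types were read to see what the tissue held. In bulk tissue fewer cells of a type and less RNA per cell cannot be told apart. Excitatory neuron markers (18 genes, 18 tested) were abundant in every sample, with a summed level of 2147 to 2244 FPKM in controls and 2149 to 2254 FPKM in APC/β-cat cKOs, a median change of -0.073 (-0.017, -0.045 and -0.050 in the 3 alternatives, with 0, 2 and 1 higher and 1, 2 and 1 lower) and 1 member lower at an unadjusted p under 0.05, Etv1 (20.3 to 25.1 against 15.5 to 21.2 FPKM, -0.30, unadjusted p = 0.0107, adjusted p = 0.278). Parvalbumin interneuron markers (12 genes, 11 tested) had a median of -0.24 with 3 lower and 0 higher at an unadjusted p under 0.05. By replicate it was 0.030, -0.48, -0.12 and -0.52, again low in replicates 2 and 4, and it was -0.057, -0.25 and -0.23 in the 3 alternatives, with 0 higher and 0, 2 and 1 lower. Pvalb itself was at 68.2, 61.2, 63.1 and 66.6 FPKM in controls and 63.2, 50.7, 54.1 and 66.1 FPKM in double mutants (-0.15, unadjusted p = 0.42, adjusted p = 0.728), and the groups overlapped, while APC cKOs were at 25.6 to 54.4 FPKM and β-cat cOEs at 37.1 to 61.7 FPKM. The sodium channel gene Scn1a was at 24.9 to 32.95 FPKM in controls and 17.7 to 30.3 FPKM in double mutants (log2 change -0.40) and the potassium channel gene Kcnc2 at 20.4 to 22.6 FPKM in controls and 15.03 to 21.4 FPKM in double mutants (log2 change -0.30). Erbb4, a neuregulin receptor gene, was at 5.28 to 6.15 FPKM in controls and 1.23 to 6.79 FPKM in double mutants (log2 change -0.79). These 3 had unadjusted p from 0.0223 to 0.0416 and adjusted p from 0.294 to 0.335.

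Of other interneuron markers (14 genes, 14 tested; median 0.0008) 3 were lower and 0 higher at an unadjusted p under 0.05, and the median was -0.088, -0.085 and -0.11 in the 3 alternatives, with 0 higher and 1, 3 and 3 lower. The neuropeptide gene Vip was at 47.4, 63.4, 62.3 and 60.4 FPKM in controls and 48.9, 42.1, 41.99 and 41.3 FPKM in double mutants (-0.42, unadjusted p = 5.00e-04, adjusted p = 0.113), with control replicate 1 inside their range, and without that control the change was -0.51 (adjusted p = 0.00926). Lamp5, listed as 6330527O06Rik, was at 126 to 141 FPKM in controls and 107 to 120.0 FPKM in double mutants (log2 change -0.27) and the transcription factor gene Prox1 at 1.12 to 1.52 FPKM in controls and 0.522 to 1.398 FPKM in double mutants (log2 change -0.55), with unadjusted p from 0.014 to 0.0271 and adjusted p from 0.281 to 0.307. Microglial markers (13 genes, 13 tested) had all 13 changes above 0, a median of 0.18 and 5 higher and 0 lower at an unadjusted p under 0.05. Their summed level was 247 to 275 FPKM in controls and 274 to 309 FPKM in APC/β-cat cKOs, and the median was 0.16, 0.22 and 0.17 in the 3 alternatives, with 2, 4 and 3 higher and 0 lower. The lysosomal gene Cd68 was at 3.69, 3.97, 4.99 and 4.64 FPKM in controls and 6.16, 4.95, 6.11 and 6.18 FPKM in double mutants (0.43, unadjusted p = 0.00408, adjusted p = 0.231). Csf1r, the receptor gene on which microglia depend, was at 20.9 to 22.7 FPKM in controls and 24.2 to 26.8 FPKM in double mutants (log2 change 0.21) and the fractalkine receptor gene Cx3cr1 at 14.8 to 17.1 FPKM in controls and 16.8 to 19.8 FPKM in double mutants (log2 change 0.18). The complement gene C1qb was at 20.4 to 37.4 FPKM in controls and 30.4 to 41.6 FPKM in double mutants (log2 change 0.37). These 3 had unadjusted p from 0.0176 to 0.0346 and adjusted p from 0.283 to 0.324.

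Oligodendrocyte markers (12 genes, 12 tested) had a median of 0.16 (0.15, 0.15 and 0.11 in the 3 alternatives, with 0, 2 and 1 higher and 0 lower) with 3 higher and 0 lower at an unadjusted p under 0.05, namely the myelin genes Mag (26.001 to 31.5 against 30.1 to 41.02 FPKM), Mog (15.7 to 27.8 against 24.4 to 32.9998 FPKM) and Cnp (64.9 to 85.2 against 78.8 to 95.4 FPKM), at adjusted p from 0.281 to 0.289. Their precursors (8 genes, 8 tested) had a median of 0.11 and 0 members at an unadjusted p under 0.05 (0.048, 0.15 and 0.10 in the 3 alternatives, with 0, 1 and 0 higher and 0 lower), with Olig1 at 27.7 to 31.1 against 28.9 to 33.5 FPKM and Pdgfra at 7.66 to 9.93 against 6.71 to 9.39 FPKM. Astrocyte markers (12 genes, 12 tested; median -0.0002) and vascular markers (14 genes, 14 tested; median -0.027) each had 1 member lower and 0 higher at an unadjusted p under 0.05. These were the glutamate transporter gene Slc1a2 (272 to 352 against 192 to 314 FPKM, -0.40, unadjusted p = 0.01, adjusted p = 0.278), lowest in replicates 2 and 4, and the pericyte gene Rgs5 (12.5 to 14.9 against 8.75 to 14.003 FPKM, -0.36, unadjusted p = 0.00637, adjusted p = 0.257). The astrocyte median was -0.036, 0.012 and -0.012 in the 3 alternatives, with 0 higher and 0, 1 and 1 lower, and the vascular median was -0.038, -0.043 and -0.044 in the 3 alternatives, with 0 higher and 0, 1 and 1 lower. Immature neuron markers (12 genes, 11 tested) had a median of 0.053 (-0.26, 0.067 and 0.023 in the 3 alternatives, with 0 members higher or lower in each) and 1 member higher at an unadjusted p under 0.05, Tubb3 (247 to 265 against 267 to 300.4 FPKM, 0.14, unadjusted p = 0.034, adjusted p = 0.323). Markers of striatal projection neurons, a neighbouring region, varied widely within both groups. Their summed levels were 155 to 568 FPKM in controls and 182 to 561 FPKM in APC/β-cat cKOs and the replicate medians of the double mutants -0.58, -0.65, 0.33 and 1.45. In controls 1 to 4 the medians were 1.48, 0.21, -0.87 and -0.77, and control replicate 1 was the highest. The list (12 genes, 12 tested) had a median of 0.17, which was -0.033, 0.12 and 0.64 in the 3 alternatives, with 0 members higher or lower in each, with Ppp1r1b at 49.5 to 172 against 56.5 to 166 FPKM and Penk at 43.5 to 145 against 38.8 to 158 FPKM. Choroid plexus and ependyma (12 genes, 10 tested) had a median of 0.42 (-0.12, 0.32 and 0.48 in the 3 alternatives, with 0 members higher or lower in each) and replicate medians of -0.34, 1.24, 0.099 and 0.84, with Rsph1 at 2.59 to 3.89 against 3.69 to 5.07 FPKM and Enkur at 1.56 to 2.62 against 2.28 to 4.62 FPKM. Meninges (12 genes, 11 tested) had a median of -0.17 (-0.25, -0.17 and -0.15 in the 3 alternatives, with 0 members higher or lower in each), with Mgp at 40.3 to 64.4 against 31.3 to 46.2 FPKM and Igf2 at 11.9 to 20.2 against 14.2 to 21.7 FPKM. None of the striatal, choroid plexus or meningeal markers passed an unadjusted p under 0.05, and the part that dissection has in other values was not tested.

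**Figure D5:**
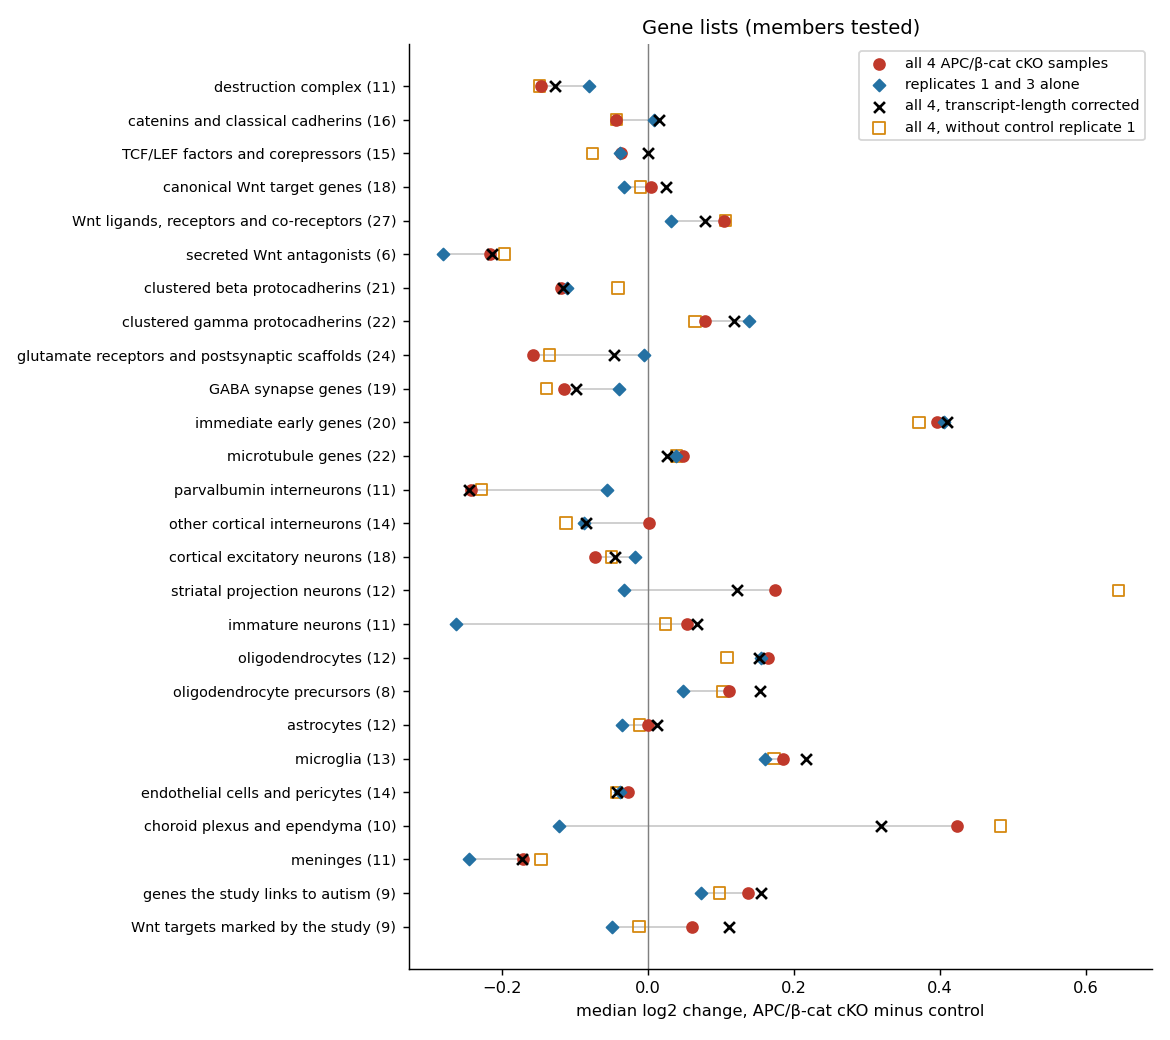
Median log2 change in APC/β-cat cKO minus control (x axis) of 26 gene lists (y axis, number of members tested in brackets), for all 4 double mutants (red circles), replicates 1 and 3 alone (blue diamonds), all 4 after the transcript-length correction (crosses) and all 4 without control replicate 1 (open squares). Immediate early genes and microglia stay to the right of 0 at all 4 marks. So do oligodendrocytes, their precursors, Wnt ligands and receptors, gamma protocadherins, microtubule genes and the genes the study links to autism. The striatal median moves to 0.64 without control replicate 1, and the glutamate receptor median moves from -0.16 to -0.0061 with replicates 1 and 3.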

How the data were processed

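RNA of freshly dissected PFC was sequenced from 16 mice, 4 of each genotype, as stranded paired-end mRNA libraries. Per the labels, the submitters' processing notes and the study's methods, the authors used bcl2fastq, aligned reads with TopHat2 (2.0.10) to mm10 and estimated FPKM for each gene with Cuffdiff (2.1.1). The deposited values are taken as log2(FPKM + 1). The file headers name FPKM, and the log base and the offset of 1 were inferred from the values, of which none was below 0. The gene annotation and the handling of strand are not given in the sources used here. The table holds 23284 genes, of which 3841 were at 0 in every sample, and 13978 with a mean of at least 0.5 FPKM were tested. Values were returned to FPKM, and log2(FPKM + 0.1) was fitted with limma (3.58.1, R 4.3.3) over all 16 samples by genotype, with 12 residual degrees of freedom, eBayes with a trend and Benjamini-Hochberg adjustment over all tested genes. A fold change on this scale understates the change of low genes. Single values were tested by exact permutation, 4 against 4, with a smallest two-sided p of 0.0286. Whether samples of 1 genotype came from separate litters is not stated, and p-values measure the spread between these samples. The length correction took a loess curve (span 0.5) of each sample's deviation on log2 transcript length off its values. Transcript lengths were known for 13737 genes (98.3%). Coordinates are those of GENCODE (mm10) by symbol, by an older symbol for 1871 genes and by the file's locus for 651. Promoters are from RefSeq (GRCm38.p6). Named genes are 27 of the 29 that passed, Apc, Ctnnb1, and of each list up to 4 members with the smallest unadjusted p under 0.05 or, where there were none, the 2 most abundant, with Pvalb. Axin2 was named beside this rule, and 3 genes the rule selects are not reported here. Members and lists were chosen with earlier results of these data known. The limma fit was tested on simulated data. Alternatives were other pseudocounts, filters, scalings, covariates, blocks and subsets of samples. No 2 samples of a group had identical values, and correlations within groups were 0.970 to 0.984.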

Additional observations from a re-analysis of the deposited data

Results flagged for a closer look

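In 7 of 124 groups of 4 samples (31 genes in 4 genotypes) the highest or lowest sample stood away from the other 3, with a gap to its nearest neighbour above Dixon's critical share of the group's range, where chance gives 6.2. In β-cat cOE the gap was 0.8434 of the range for 2010315B03Rik, 0.9944 for Zyx, 0.9587 for Jun and 0.8881 for 6720456H20Rik. In controls it was 0.8403 for Gtpbp6 and 0.8887 for Pon2, and in APC/β-cat cKO it was 0.9007 for S100a13. For Pon2 the sample was control replicate 4 at 30.9 FPKM.

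Several of the 29 genes differed between the double mutant and another mutant line in a direct limma contrast. Against APC cKO the log2 difference was 1.713 for Wwox, 1.932 for Fut10 and 0.9812 for 2810002D19Rik, and it was -1.382 for 2010315B03Rik, -0.3552 for Sacm1l and -0.4115 for Gnl3l. These 6 genes changed against control in the double mutant, and none of them passed in APC cKO against the same controls. Against β-cat cOE it was 1.746 for Wwox, -1.437 for 2010315B03Rik, -0.4207 for Sacm1l and -0.5216 for Gnl3l. A further 7 genes differed from β-cat cOE without passing against APC cKO, namely Apc at -2.161, Mrpl41 at 0.362, Gm6277 at -1.495, Ccdc75 at 0.4797, Epm2aip1 at -0.5855, Rps15a-ps6 at -5.048 and Pcdhb9 at -1.497. Adjusted p values of all these differences were under 0.05, and both comparisons share the APC/β-cat cKO samples. Of the 29 genes, 14 differed from neither line at this threshold, which does not show that they were alike.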

How the results depend on the processing

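Of the changed genes against control, 13 passed in place of 29 when only the 8 samples compared were fitted, 49 with sex as a covariate, 63 in male samples alone, 8 with replicates 1 and 3 as the only double mutants and 9 at an adjusted p under 0.01. Against APC cKO the count was 30, and it was 16 without a mean-variance trend, 6 with the 8 samples alone, 14 with sex as a covariate, 17 in males and 8 at an adjusted p under 0.01. Against β-cat cOE it was 32, and it was 50 in males and 9 at an adjusted p under 0.01. Leaving out 1 sample moved the count against control between 10, without double mutant 2, and 56, without control 1. Against APC cKO the counts lay between 10, without double mutant 2, and 32, without control 4, and against β-cat cOE between 9, without β-cat cOE 1, and 54, without control 1. The cause was not tested. The Apc change ranged from -2.25 to -1.97 and that of Ctnnb1 from -0.0618 to -0.031, and Apc passed in every fit. With a replicate block the counts were 14 against control, 15 against APC cKO and 12 against β-cat cOE. Over all tested genes the correlations of same-numbered double mutants and controls were 0.0564, -0.0465, 0.0547 and -0.1196 for replicates 1 to 4. Whether equal numbers mark a shared litter or run is not given, and these correlations cannot settle it. Over 31 genes and all alternatives, 655 of 895 values kept their direction and their side of the threshold, 240 fell short of the threshold and 0 turned their direction. Of 754 list medians 25 moved by more than the spread between replicates, and the median of other interneuron markers, near 0 with all samples, was -0.1127 without control replicate 1 and 0.08275 without control replicate 2.

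The values carry no fragment counts, so the depth and the counting error of low genes such as Bub1b are unknown. Calls near the threshold depend on 4 samples a group, and on double mutant replicates 2 and 4, whose values depend on transcript length and GC content. All double mutants were male and 1 control was female, so the fits by sex are not separate from the fit without that control. Which of the mice shared a litter is not given in the sources used here.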

Other observations

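Of 238 tested genes of translation and respiration, lists chosen after their values were seen, 1 passed the adjusted threshold, Mrpl41. Cytosolic ribosomal protein genes had 74 of 77 tested genes above 0, 48 higher and 0 lower at an unadjusted p under 0.05 and a median of 0.21. Mitochondrial ribosomal protein genes had 57 of 76 tested genes above 0, 14 higher and 1 lower at an unadjusted p under 0.05 and a median of 0.077, and subunits of oxidative phosphorylation 75 of 85 tested genes above 0, 23 higher and 1 lower at an unadjusted p under 0.05 and a median of 0.11. These transcripts are short. With replicates 1 and 3 alone the medians were 0.098, -0.0012 and 0.0056, with 3, 6 and 2 higher and 1, 2 and 3 lower at an unadjusted p under 0.05. After the length correction they were 0.11, 0.012 and 0.012, with 25, 11 and 6 higher and 1, 2 and 5 lower. By replicate the cytosolic list was at 0.057, 0.26, 0.12 and 0.38 in double mutants 1 to 4.

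Without control replicate 1, 31 genes passed that did not pass with it, 22 higher and 9 lower in the double mutants, and in 14 of them this control lay within the double mutant range. The following were chosen after their values were seen. Tuba1c, an α-tubulin gene, was at 0.4197, 2.801, 2.83 and 3.302 FPKM in controls 1 to 4, at 0.2999 to 0.468 FPKM in APC/β-cat cKOs, at 0.247 to 0.4701 FPKM in APC cKOs and at 2.84 to 3.92 FPKM in β-cat cOEs. Control replicate 1 lay with the lines that carry the floxed Apc allele, and controls 2 to 4 lay with β-cat cOE. The protocadherin gene Pcdhb6 was at 3.78, 0.581, 0.775 and 0.807 FPKM in controls, at 1.32 to 2.71 FPKM in APC/β-cat cKOs, at 2.78 to 4.28 FPKM in APC cKOs and at 0.6202 to 1.18 FPKM in β-cat cOEs, so the same control was again apart from the other 3. 4 of the 31 were beta protocadherins, Pcdhb3, Pcdhb6 and Pcdhb7 higher and Pcdhb12 lower in the double mutants. Apc itself was at control level in control replicate 1 (43.2 FPKM).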
